A study of Homo sapiens with 4 samples.

Results

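The order of reverse transcription (RT) and chromatin tagmentation was compared in 2 of the 4 RNA libraries of the series, both made from H9 cells that were profiled for RNA and DNA together. H9 is an established line of human embryonic stem cells, here in the primed pluripotent state. In one library, Pre, RT of RNA came before tagmentation with proteinA-Tn5 loaded with antibodies to H3K27me3 and H3K27ac. In the other, Post, RT came after it. Neither library had a genetic change or a drug treatment in its labels, and both started from lightly fixed nuclei. The other 2 libraries, Pre and Post for RNA only, were made from the same line and share no library with the pair described here, so their values are set beside it. Which tagmentation steps these went through is not given in the sources used here. Each condition is 1 library, so no difference has a replicate check, and a difference between the cultures and one between the orders of RT cannot be told apart. The question was how far the transcriptome differed when nuclei had gone through tagmentation before their RNA was copied.

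In this method a barcoded poly-T primer anneals to RNA inside permeable nuclei, and reverse transcriptase copies the RNA from there. Most mature mRNAs carry a poly(A) tail, while replication-dependent histone mRNAs end in a conserved stem-loop and RNAs made by RNA polymerase III, such as RMRP, have no encoded tail. A poly-T primer can also anneal to stretches of A inside a transcript, including those in introns of unspliced RNA. RNA of nuclei is rich in unspliced transcripts of long genes, whereas mRNAs of ribosomal proteins and mitochondrial transcripts are mostly found outside the nucleus. H3K27me3, set by Polycomb repressive complex 2, marks silent developmental genes in pluripotent cells, and H3K27ac marks active promoters and enhancers.

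The RT primers of the pair are shown because they set which RNA could be copied. They are those that the study's oligonucleotide sheet lists under the RT numbers of the count columns. The capitals mark the RT index, the run of n is the unique molecular identifier, and the biotinylated T of the primer is written as t. The anchor that follows the run of T, a base other than T and then any base, is left out.
RT primer of Pre: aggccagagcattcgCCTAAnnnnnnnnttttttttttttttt
RT primer of Post: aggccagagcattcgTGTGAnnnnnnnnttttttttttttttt
The primers differ in the index only, so the index and the order of RT cannot be told apart.

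RMRP, the RNA of the RNase MRP ribonuclease, which takes part in ribosomal RNA processing, had the largest ratio of Post over Pre among genes that averaged 10 RPM (reads per 1000000 counted) or more. Its gene is annotated as a ribozyme of 264 bases on the minus strand of GRCh38, and its sequence is shown with the longest runs of A in capitals.
RMRP, chr9:35657754-35658017: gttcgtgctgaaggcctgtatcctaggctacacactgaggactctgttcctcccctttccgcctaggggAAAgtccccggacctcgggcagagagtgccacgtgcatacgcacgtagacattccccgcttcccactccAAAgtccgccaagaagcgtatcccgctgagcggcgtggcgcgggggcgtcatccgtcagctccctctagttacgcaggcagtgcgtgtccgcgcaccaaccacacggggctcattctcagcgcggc
The longest run of A was 3 bases and occurred in 2 places. RMRP had 505 counts in Pre and 5118 in Post, or 63.1 RPM (95% interval 57.7 to 68.9) and 603 RPM (586 to 619), a ratio of 9.55 (8.71 to 10.5). It had 152 RPM in Pre and 1002 RPM in Post of the RNA only pair. The Post libraries were thus high and the Pre libraries low in both pairs. Of the 4 listed noncoding RNAs without a tail 3 averaged 1 RPM or more, and each of them exceeded the median of all genes. TERC, the template RNA of telomerase, had 4.00 RPM in Pre and 6.71 RPM in Post, a ratio of 1.68 (1.07 to 2.67). The protein subunits of RNase MRP and of the related RNase P did not share this direction, and 9 of 10 lay below the median of all genes, with a relative median log2 ratio of −0.26. POP7, one of them, had 14.997 RPM in Pre and 8.48 RPM in Post.

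Total counts were 8960724 in Pre and 10089552 in Post. The 6 genes whose symbols begin with FP236383 or FP671120 took 10.7% and 15.8% of them, and RPM are over the totals without these genes, 8001810 and 8491917. They took 12.3% and 34.8% in the RNA only pair. Their part in the results was not tested. The cells had the defining markers of their label, and all 12 primed markers lay between 18.7 and 1202 RPM in Pre and between 15.2 and 995 RPM in Post. The 26 markers of naive cells and of the germ layers and trophoblast lay at up to 5.00 RPM in Pre and up to 9.77 RPM in Post. The intervals given are exact 95% ones, and they cover counting error only. Log2 ratios were taken after adding 1 RPM, which understates differences of low genes.

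Most genes had similar values in both libraries. Over the 12453 genes that averaged 10 RPM or more, the log2 ratio (Post over Pre) had a median of −0.01 and quartiles of −0.17 and 0.14, and 96.6% of these genes lay within 1.5-fold and 73.7% within 1.2-fold. At least 2-fold higher in Post were 16 genes, 0.128% of those compared, and at least 2-fold lower were 13, or 0.104%. This split depended on the scaling. It was 12 higher and 17 lower with TMM library sizes, 15 and 16 with median-of-ratios size factors, and 10 and 21 with the 6 clone genes in the totals. At least 1.5-fold higher were 145 genes (1.16%) and lower were 283 (2.27%), and these counts were 104 and 369 with TMM, 114 and 347 with size factors, and 80 and 402 with the 6 clone genes in the totals. The RNA only pair, over the same genes, had 141 at least 2-fold higher (1.13%) and 14 lower (0.112%), and 583 (4.68%) and 364 (2.92%) at 1.5-fold. Whether the pairs differ was not tested.

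**Figure D1:**
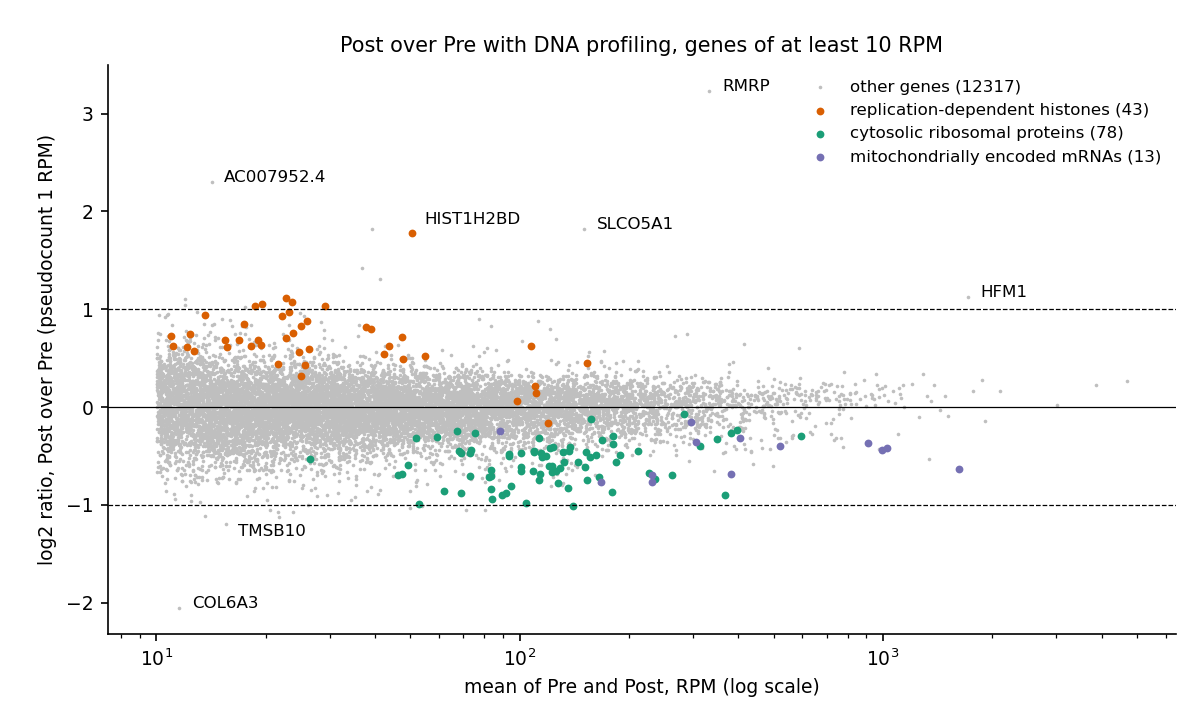
Log2 ratio of Post over Pre with DNA profiling (y axis, pseudocount 1 RPM) against the mean of both libraries in RPM (x axis, log scale), 1 point a gene that averaged 10 RPM or more; dashed lines mark 2-fold. RMRP lies highest at 3.24 and COL6A3 lowest at −2.05, while histones lie mostly above 0 and ribosomal protein and mitochondrial mRNAs below it.

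Of the 16 genes called higher, 6 were replication-dependent histones and 15 were also at least 2-fold higher in the RNA only pair. The exception was LINC02712, a long noncoding RNA, with 7.498 RPM in Pre and 16.5 RPM in Post and with 13.7 and 14.5 RPM in the RNA only pair. The interval of the ratio lay wholly above 2-fold for 8 of the 16. A further 4 were the clone-named genes AC007952.4, AC124312.3, AL627171.2 and AL356488.2, for which the annotation gave no position. Among these AC007952.4 had the highest ratio, with 4.12 RPM (2.84 to 5.79) in Pre and 24.3 RPM (21.1 to 27.8) in Post, or 5.88-fold (4.06 to 8.77). It had 10.8 and 124 RPM in the RNA only pair. AC124312.3 followed with 16.7 RPM in Pre and 61.7 RPM in Post, and the other 2 had ratios of 2.76 and 2.54. HHAT, which encodes the acyltransferase of Hedgehog ligands, had 7.25 RPM in Pre and 16.7 RPM in Post. LDOC1, a gene of retrotransposon origin, had 11.2 RPM in Pre and 23.9 RPM in Post. Both had a wider separation in the RNA only pair, with 9.36 and 45.05 RPM for HHAT and 12.2 and 80.2 RPM for LDOC1.

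HFM1, which encodes a meiotic DNA helicase, had 1074 RPM (1051 to 1097) in Pre and 2350 RPM (2317 to 2382) in Post, or 2.19-fold (2.13 to 2.24). SLCO5A1, an organic anion transporter family gene, had 66.0 RPM (60.5 to 71.9) in Pre and 235 RPM (225 to 246) in Post, or 3.57-fold (3.24 to 3.93). In the RNA only pair HFM1 had 1201 and 6060 RPM and SLCO5A1 89.7 and 363 RPM. Both genes hold, on their own strand, a segment like the 45S precursor of ribosomal RNA. In HFM1 it is 366 bases long and 99.7% identical to the precursor, with 1 differing base. A window of 150 bases of it, on the minus strand, is shown with that base in capitals, because reads from either source would carry nearly the same letters.
HFM1 segment, chr1:91387442-91387591: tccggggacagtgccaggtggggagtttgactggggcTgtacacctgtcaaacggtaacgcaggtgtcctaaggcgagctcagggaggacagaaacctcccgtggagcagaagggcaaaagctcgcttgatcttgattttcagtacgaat
Among genes averaging 10 RPM or more, 31 held such a segment of at least 100 bases, and of these 2 were called higher and 0 lower. Over all 12453 genes at that level 0.128% were called higher and 0.104% lower. Some of the 31 overlap and hold the same segment, as AAMDC and INTS4 do, so they are not separate cases. The median log2 ratio of the 31 was 0.21, beside −0.01 for all 11146 genes with a place. It was 0.45 for the 9 genes whose segment was at least 95% identical. Both medians include HFM1 and SLCO5A1, at 1.13 and 1.82. The rest of the 9 lay between 0.10 (PID1) and 0.75 (PDE3A). Genes with a segment were not matched to other genes by their span on the genome. All genes in the fifth with the longest span had a median of 0.12 and a lower quartile of 0.025. With the segment on the gene's own strand, 16 of 21 genes lay above 0 and 4 were at least 1.5-fold higher. With it on the other strand 7 of 10 lay above 0 and 0 were at least 1.5-fold higher. Over all 12453 genes 1.16% were. The segments shared by AAMDC and INTS4 and by CTNNA3 and LRRTM3 stand in both strand counts. PDE3A, a cyclic nucleotide phosphodiesterase gene, had 216 RPM in Pre and 364 RPM in Post, and ANKRD30BL, an ankyrin repeat gene, had 23.0 and 37.7 RPM. Whether reads of ribosomal RNA were counted for these genes was not tested.

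**Figure D2:**
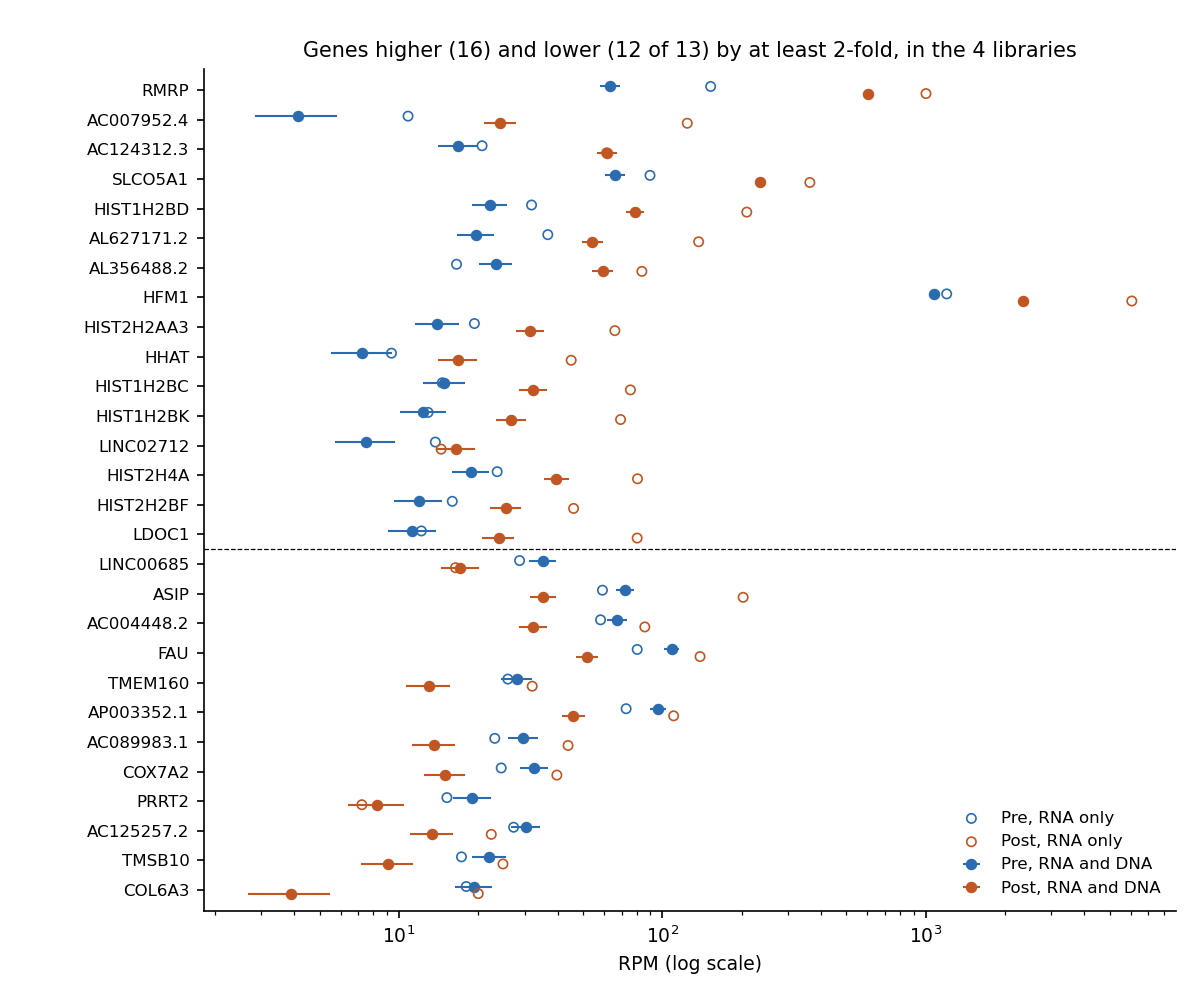
RPM (x axis, log scale) of the 16 genes called higher, above the dashed line, and 12 of the 13 called lower, below it, in Pre (blue) and Post (orange). Filled points are the libraries with DNA profiling with 95% counting intervals and open points are those for RNA only; for 9 of the 12 lower genes shown the open points run the other way.

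Replication-dependent histone genes encode the core and linker histones that package newly copied DNA, and their mRNAs end just after a stem-loop in place of a poly(A) tail. Of 71 such genes 62 averaged 1 RPM or more, and 59 of these exceeded the median log2 ratio of all genes (0.03). Their median log2 ratio was 0.67 relative to all genes, and 1.56 in the RNA only pair. Averaging 10 RPM or more there were 43, of which 6 were at least 2-fold and 30 at least 1.5-fold higher in Post, and 0 were lower by either measure. Summed over all 71, they had 1399 RPM (1373 to 1425) in Pre and 2079 RPM (2049 to 2110) in Post, a ratio of 1.49 (1.45 to 1.52).

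The classes of histone differed in size. The relative median was 0.86 for H2B, where all 16 measured genes exceeded the median of all genes. It was 0.68 for H3 with all 12 above, 0.64 for H2A with all 16 above, and 0.60 for H4 with 11 of 13 above. It was 0.11 for linker histone H1, with 4 of 5 above. Among histones that averaged 10 RPM or more, HIST1H2BD (now H2BC5) had the highest ratio, with 22.1 RPM (18.98 to 25.6) in Pre, 78.7 RPM (72.8 to 84.9) in Post, and 31.9 and 209 RPM in the RNA only pair. Its ratio was 3.56 (3.01 to 4.22). The other 5 called histones, HIST2H2AA3, HIST1H2BC, HIST1H2BK, HIST2H4A and HIST2H2BF, had ratios between 2.11 and 2.25. Some of these genes have near-identical copies, so the split of reads between copies is uncertain.

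The H4 gene HIST1H4C (now H4C3) stood apart from its class. It had 127 RPM (119 to 135) in Pre and 113 RPM (106 to 121) in Post, a log2 ratio of −0.16, while in the RNA only pair it had 113 and 395 RPM. The linker histone gene HIST1H1B (now H1-5) had 129 RPM in Pre and 177 RPM in Post, a log2 ratio of 0.45. HIST1H1C (now H1-2) had 105 and 116 RPM, a log2 ratio of 0.14. The 9 measured replacement histones, whose mRNAs carry poly(A) tails, had a relative median of −0.43, with 8 below the median of all genes. H3F3B, one of the genes of histone H3.3, had 122 RPM (115 to 130) in Pre and 80.1 RPM (74.2 to 86.3) in Post, 1.53-fold lower (1.38 to 1.69).

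The stem-loop sites are shown because they are what these mRNAs share in place of a tail. A run of 16 bases, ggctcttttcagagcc, was found toward the 3′ end of annotated transcripts of 40 of the 71 genes. Over whole transcripts, every gene held a site with at most 3 differences from it. Capitals mark differences from the shared run.
HIST1H2BD, chr6:26158587-26158602: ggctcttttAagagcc
HIST1H2BC, chr6:26123472-26123487: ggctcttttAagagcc
HIST1H2BK, chr6:27146366-27146381: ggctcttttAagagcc
HIST2H2AA3, chr1:149842223-149842238: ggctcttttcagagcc
HIST2H2BF, chr1:149811885-149811900: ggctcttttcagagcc
HIST2H4A, chr1:149833032-149833047: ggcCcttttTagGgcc
HIST1H4C, chr6:26104317-26104332: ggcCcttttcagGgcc
HIST1H1B, chr6:27866797-27866812: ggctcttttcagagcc
HIST1H1C, chr6:26055744-26055759: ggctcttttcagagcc
The same site was present in genes with high and with low ratios. Some histone genes are also annotated with a transcript that runs more than 50 bases past the site or lacks it. This was so for 4 of the 6 called genes, which were HIST1H2BD, HIST1H2BC, HIST2H2BF and HIST2H4A, and for 9 of the other 37 that averaged 10 RPM or more. The median log2 ratio was 0.73 over the 13 genes with such a transcript and 0.63 over the 30 without. Counts per gene do not tell which transcript the reads came from. Genes that act on the 3′ ends of histone mRNAs had a relative median of −0.09 with 10 of 14 below the median of all genes. SLBP, the protein that binds the stem-loop, had 32.1 RPM (28.3 to 36.3) in Pre and 24.1 RPM (20.9 to 27.7) in Post.

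The 13 genes called lower behaved otherwise. In the RNA only pair none was called 2-fold lower after adding 1 RPM, although the plain ratio of PRRT2 passed 2-fold there, and 10 of them had a ratio of the opposite sign there. The interval of the ratio lay wholly beyond 2-fold for 1, COL6A3, which encodes a chain of collagen VI. COL6A3 had 154 counts in Pre and 33 in Post, or 19.2 RPM (16.3 to 22.5) and 3.89 RPM (2.67 to 5.46), 4.95-fold lower (3.38 to 7.45). In the RNA only pair it had 17.997 and 19.995 RPM, so Post with DNA profiling was the low library of the 4. TMSB10, which encodes an actin-binding thymosin, had 21.995 RPM in Pre and 9.07 RPM in Post, 2.43-fold lower (1.85 to 3.21), and 17.3 and 24.8 RPM in the RNA only pair. FAU, which encodes a ubiquitin-like fusion to a ribosomal protein, was 2.09-fold lower (1.86 to 2.35). COX7A2, a subunit gene of cytochrome c oxidase, was 2.18-fold lower (1.76 to 2.72). ASIP, which encodes agouti signalling protein, had 72.2 RPM in Pre and 35.3 RPM in Post, against 59.2 and 203 RPM in the RNA only pair. PRRT2, a synaptic membrane protein gene, and LINC00685 were lower in Post in both pairs, PRRT2 with 18.996 and 8.24 RPM here and 15.2 and 7.23 RPM in the RNA only pair. LINC00685 had 35.2 and 17.1 RPM here and 28.7 and 16.4 RPM there. AC125257.2 was the third gene with the same sign, with 30.2 and 13.3 RPM here and 27.2 and 22.4 RPM there. TMEM160, AP003352.1, AC089983.1 and AC004448.2 were between 2.08-fold and 2.19-fold lower.

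Messenger RNAs of the cytosolic ribosome were lower in Post throughout. The 47 genes of the large subunit had a relative median log2 ratio of −0.63 and the 31 of the small subunit one of −0.52. None of the 78 exceeded the all-gene median. At least 1.5-fold lower were 24 genes of the large and 13 of the small subunit. Summed, the large subunit had 7986 RPM (7924 to 8048) in Pre and 5515 RPM (5465 to 5565) in Post. The sums were 7213 and 12062 RPM in the RNA only pair, where all 78 genes exceeded the median. RPLP1, a protein of the ribosomal stalk, had 478 RPM (463 to 494) in Pre and 257 RPM (246 to 268) in Post, 1.86-fold lower (1.77 to 1.97). At the other end of the range RPS23 had 290.1 RPM (278 to 302) and 276 RPM (265 to 287), intervals that overlap. In the RNA only pair RPS23 had 243 and 937 RPM and RPLP1 had 396 and 848 RPM. The 78 mitochondrial ribosomal protein genes, which are nuclear genes, had a relative median of −0.25, with 72 below. Of these MRPL51 had the lowest log2 ratio, −0.95. Initiation and elongation factors had a relative median of −0.19, with 57 of 69 below. EEF1A1, the elongation factor that brings aminoacyl-tRNA to the ribosome, had 790 RPM in Pre and 651 RPM in Post.

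The same direction was seen for transcripts of energy metabolism. All 13 mRNAs of the mitochondrial genome lay below the median of all genes, with a relative median of −0.45, and 5 were at least 1.5-fold lower. MT-CO1, the catalytic subunit of cytochrome c oxidase, had 1967 RPM (1936 to 1998) in Pre and 1272 RPM (1248 to 1296) in Post, 1.55-fold lower (1.51 to 1.59). MT-ND2, of complex I, had 293 and 171 RPM, and MT-CO2, the member nearest to the median, had 311 and 280 RPM. Set beside these, MT-CO1 had 1820 and 2009 RPM and MT-CO2 293 and 507 RPM in the RNA only pair. Nuclear genes of complexes II to V had a relative median of −0.39 with 43 of 45 below, and those of complex I one of −0.28 with 33 of 38 below. Glycolysis genes had −0.21 with 14 of 19 below, and GAPDH, the glyceraldehyde phosphate dehydrogenase, had 602 RPM in Pre and 396 RPM in Post. Genes of cholesterol synthesis had −0.20 with 16 of 22 below.

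Among genes of protein folding and turnover, the 8 subunits of the cytosolic chaperonin CCT all lay below the median of all genes, with a relative median of −0.40. CCT5 had 197 RPM (188 to 207) in Pre and 140 RPM (132 to 148) in Post. Heat shock proteins and cochaperones had −0.30 with 16 of 19 below, and HSP90AB1, a constitutive cytosolic chaperone, had 1585 RPM in Pre and 1098 RPM in Post. Proteasome subunits had −0.24 with 34 of 38 below. PSMB4, a subunit of the proteasome core, had 50.1 RPM in Pre and 28.0 RPM in Post. Splicing factors of the SR and hnRNP families had −0.26 with 33 of 37 below. Actins and tubulins had −0.22, with 14 of 17 below, while ACTB itself had 740 RPM in Pre and 771 RPM in Post. The corresponding medians in the RNA only pair were 0.23 for CCT, 0.07 for heat shock proteins, 0.20 for the proteasome, 0.05 for splicing factors and 0.56 for actins and tubulins.

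**Figure D3:**
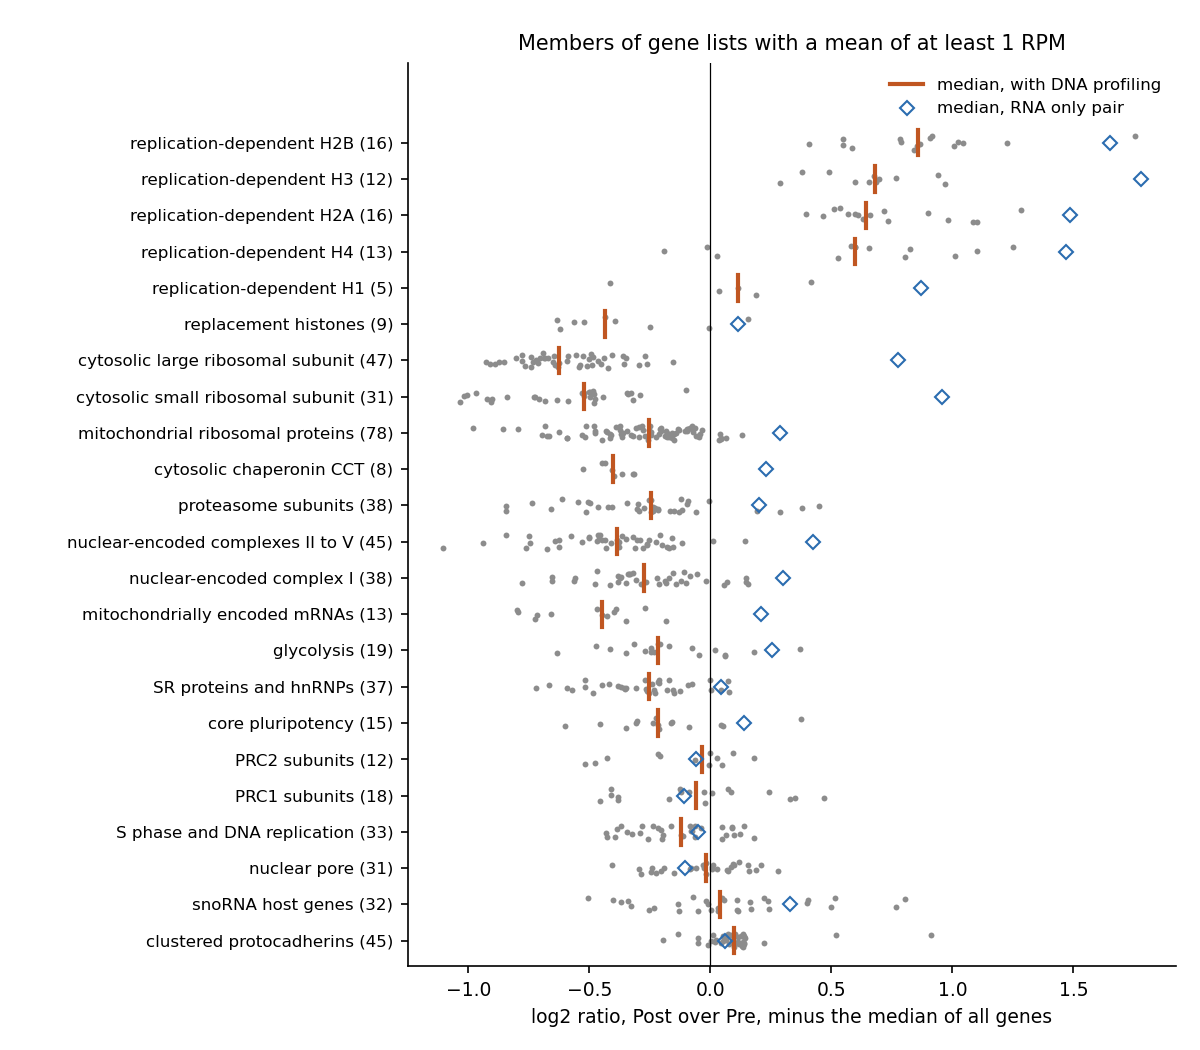
Log2 ratio of Post over Pre minus the median of all genes (x axis) for members of gene lists with a mean of 1 RPM or more (grey points, number in brackets), with the list median (orange bar) and the median of the same genes in the RNA only pair (blue diamond). Histone classes lie to the right in both pairs, whereas ribosomal, respiratory and folding genes lie to the left with DNA profiling and to the right for RNA only.

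Pluripotency genes were lower in Post by smaller amounts. The relative median was −0.22 for 15 measured core pluripotency genes, with 12 below the median of all genes, and −0.22 for 19 primed genes, with 16 below. POU5F1, the OCT4 transcription factor, had 213 RPM (203 to 224) in Pre and 176 RPM (167 to 185) in Post, and 197 and 284 RPM in the RNA only pair. SOX2, its partner factor, had 165 RPM (156 to 174) and 111 RPM (104 to 118), and 147 and 128 RPM in the RNA only pair. NANOG had 40.4 RPM (36.1 to 45.02) and 35.3 RPM (31.4 to 39.6), intervals that overlap. L1TD1, an RNA-binding protein of pluripotent cells, had 1202 RPM in Pre and 995 RPM in Post. None of the core genes was 1.5-fold apart, and among primed genes 1 was, DUSP6, a phosphatase of the FGF pathway, with 208 and 125 RPM. Genes of the naive state and of other lineages were few and low, and such genes can pass the bound of 1 RPM through the library where they are higher. The relative median was −0.04 for 8 measured naive genes, 0.27 for 4 of endoderm, 0.13 for 6 of mesoderm, 0.0028 for 6 of neuroectoderm and 0.04 for 5 of trophoblast and amnion.

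The enzymes of the profiled marks had similar values in both libraries. PRC2 subunits had a relative median of −0.03 with 8 of 12 below, PRC1 subunits −0.06 with 11 of 18 below, and genes of H3K27 acetylation and demethylation −0.14 with 8 of 10 below. None of these was 1.5-fold apart. EZH2, the PRC2 methyltransferase, had 148 RPM (140 to 157) in Pre and 154 RPM (146 to 162) in Post. SUZ12, its core partner, had 137 and 139 RPM, and EED, the subunit that binds H3K27me3, had 18.996 and 22.1 RPM. EP300 and CREBBP, the acetyltransferases of H3K27, had 232 and 237 RPM and 200.1 and 196 RPM. KDM6A, an H3K27 demethylase, had 290.1 RPM (278 to 302) in Pre and 329 RPM (317 to 341) in Post, and KDM6B, another, had 5.87 and 5.30 RPM. For RNA only the medians of these lists were −0.06, −0.11 and −0.13, in the same order.

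Lists of cell cycle and stress genes had relative medians between −0.18 and −0.02. The relative median was −0.12 for S phase genes with 24 of 33 below, and −0.16 for genes of G2 and mitosis with 26 of 32 below. Of the latter AURKB, a mitotic kinase, was at least 1.5-fold lower, with 50.7 RPM in Pre and 31.2 RPM in Post, and MKI67, the proliferation marker, had 464 and 503 RPM. It was −0.11 for p53 targets with 15 of 19 below, −0.18 for genes of the unfolded protein and integrated stress responses with 12 of 13 below, and −0.02 for immediate early genes with 9 of 17 below. DDIT4, a stress-induced inhibitor of mTOR, had 16.5 RPM in Pre and 9.66 RPM in Post. Genes of endoplasmic reticulum translocation and folding had −0.17 with 18 of 24 below, and SSR4, of the translocon, had 24.1 and 14.2 RPM. Signalling lists had −0.13 for NODAL and activin with 10 of 14 below, −0.04 for FGF with 9 of 16 below, and 0.01 for WNT with 13 of 27 below.

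Clustered protocadherins, cell-surface proteins of neurons that share long loci, lay slightly above the median of all genes in 40 of 45 cases, with a relative median of 0.10. The host genes of snoRNAs had 0.04, with 19 of 32 above, and 2 of them were at least 1.5-fold higher. These were SNHG3, with 88.4 RPM in Pre and 154 RPM in Post, and SNHG12, with 12.1 and 22.4 RPM. Nuclear long noncoding RNAs had 0.02. Of these MALAT1 had 2000.05 RPM in Pre and 1813 RPM in Post, and KCNQ1OT1, a transcript of an imprinted locus, had 156 and 213 RPM. The 816 measured LINC-numbered genes had 0.18, with 588 above, and the 793 antisense-named and 4927 clone-named genes had 0.07 each. Of these 183, 326 and 1250 averaged 10 RPM or more, so most were low genes. Without subtracting the median of all genes, the medians were 0.21, 0.10 and 0.10. On that scale the fifth of lowest RPM among all genes with a place, from 1 RPM, had 0.13. Zinc finger genes had 0.04 with 271 of 484 above, and the nuclear pore −0.02 with 15 of 31 above. Of MTRNR2L genes, which are nuclear copies of mitochondrial sequence, 3 were measured, with a relative median of 0.10 here and 1.27 for RNA only.

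The log2 ratio also ran with the span of the gene on the genome, from the first to the last annotated base. Over the 11146 of these 12453 genes that have a place in the annotation, the Spearman correlation was 0.46. These genes share both libraries and are not independent replicates, so it is a description. The median log2 ratio was −0.20 in the fifth of genes with the shortest span (up to 17710 bases) and then −0.09, −0.03, 0.03 and, in the fifth with the longest span (from 141057 bases), 0.12. The correlation was 0.44, 0.49 and 0.58 in genes of low, middle and high RPM (3 equal groups), and 0.47 for protein-coding and 0.32 for lncRNA genes. It was 0.46 without the histone genes and the lists of translation, energy and protein turnover. Exonic length had a correlation of 0.25, the number of exons 0.16, exonic GC content −0.04 and mean RPM 0.02. In the RNA only pair the correlation with span was −0.29, and the medians of the 5 bins were 0.22, 0.01, −0.06, −0.09 and −0.09.

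Of 350 genes that span at least 500 kb, 335 had a log2 ratio above 0, with a median of 0.20. In the RNA only pair these 350 had a median of 0.04, beside −0.02 for all genes with a place. Of 423 genes that span under 5 kb, 348 had one below 0, with a median of −0.33, while these had a median of 0.51 in the RNA only pair. Of abundant genes outside the set of at least 500 kb, SNHG14, the host transcript of the imprinted SNORD clusters, had 4274 RPM (4229 to 4319) in Pre and 5153 RPM (5105 to 5201) in Post. XACT, an X-linked noncoding RNA of pluripotent cells and also outside that set, had 1975 and 2220 RPM. Within the set UNC5D, a netrin receptor gene, had 1671 and 1879 RPM. PTPRG, a receptor tyrosine phosphatase gene of 736041 bases, had nearly the same value in both, 2996 RPM (2959 to 3035) and 3044 RPM (3007 to 3082). ROBO2, an axon guidance receptor gene named after its values were seen, had 1143 RPM in Pre and 1441 RPM in Post. The differences of these single genes were thus small beside the class medians of the H2A, H2B, H3 and H4 histones. They lay outside the counting intervals for all of these single genes but PTPRG.

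**Figure D4:**
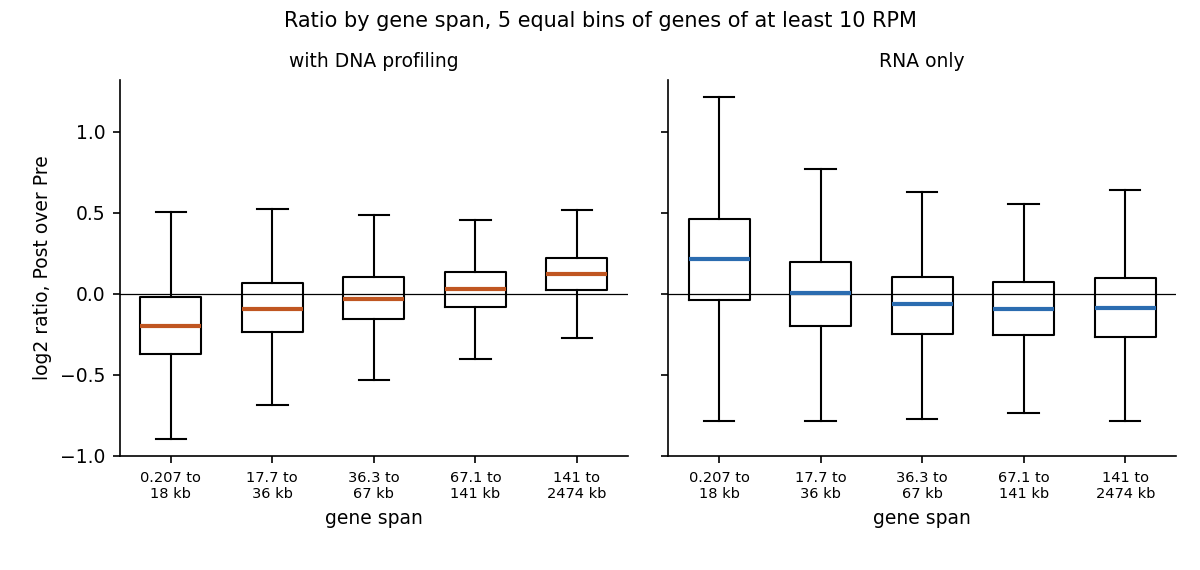
Log2 ratio of Post over Pre (y axis) in 5 equal bins of genes by span (x axis, kb), with DNA profiling (left) and for RNA only (right); boxes are quartiles with the median in colour and whiskers reach to 1.5 times the interquartile range. With DNA profiling the median climbs from −0.20 in the shortest to 0.12 in the longest bin, and for RNA only it goes from 0.22 to −0.09.

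Genes at very low levels were more abundant in Post. To keep the choice of genes apart from the pair, genes were sorted by their mean RPM in the RNA only pair. The summed RPM of genes above 0 and up to 0.1 RPM there was 1.48-fold higher in Post than in Pre, and the ratio was 1.40 up to 0.3, 1.25 up to 1, 1.16 up to 3 and 1.06 up to 10 RPM. It was 0.986 between 10 and 100 RPM and 1.00 above that.

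Families of developmental transcription factors lay further apart than other low genes. The families were picked after the values of HOX genes had been seen, so the contrast with other genes is a description. Of 174 such genes under 1 RPM in the RNA only pair, 136 (78.2%) were higher in Post and 27 lower. Of 10820 other genes under that bound, 5700 (52.7%) were higher and 4233 lower. The rest of each set had equal values in both libraries. The summed level of the developmental genes was 35.9 RPM (31.8 to 40.3) in Pre and 93.7 RPM (87.3 to 100.5) in Post, or 2.61-fold (2.28 to 3.002). It was 1.28-fold (1.26 to 1.301) for the other low genes. In the RNA only pair the sums of the developmental genes were 34.5 and 46.0 RPM, or 1.33-fold (1.10 to 1.61). Genes with higher values in that pair were left out by the bound of 1 RPM, which limits this ratio. It is therefore not like for like with the 2.61-fold of the pair with DNA profiling. Without HOX genes and their noncoding neighbours the ratio with DNA profiling was 2.11 (1.82 to 2.46).

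HOX genes, which set position along the body axis and are silenced by Polycomb in pluripotent cells, had few counts in Pre and more in Post. The 31 low HOX genes had 24 counts in Pre and 140 in Post, or 2.999 RPM (1.92 to 4.46) and 16.5 RPM (13.9 to 19.5), 5.50-fold higher (3.55 to 8.87). Of them 27 were higher and 2 lower. They had 30 and 33 counts, or 3.65 and 7.95 RPM, in the RNA only pair, where the bound of 1 RPM limits these values. Over all 34 listed HOX genes, without that bound, the sums were 9.12 RPM in Pre and 26.0 RPM in Post. The ratio was 2.85 (2.18 to 3.77). In the RNA only pair the sums over the 34 were 7.66 and 18.8 RPM. By cluster, the low HOXA genes had 4 counts in Pre and 38 in Post, HOXB genes 2 and 49, HOXC genes 15 and 36, and HOXD genes 3 and 17. HOXB3 had 1 count in Pre and 22 in Post, 20.7-fold (3.35 to 856), HOXA3 had 1 and 19, and HOXB7 had 1 and 17. The 13 noncoding genes of the clusters had 5 counts in Pre and 77 in Post, and 7 and 5 in the RNA only pair. The totals of the RNA only pair were unequal, 8223726 in Pre and 4151108 in Post without the FP genes. Taken over these totals, the ratio of Post over Pre for the noncoding genes was 1.42 (0.354 to 5.18), an interval that held 1. Of the noncoding genes HAGLR had 1 and 18 counts with DNA profiling. HOXB-AS4 had 0 and 14 counts, or 0 RPM (0 to 0.461) in Pre and 1.65 RPM (0.901 to 2.77) in Post. The interval of its ratio began at 3.13 and had no upper end. The strand setting of the counting is not given in the sources used here, so reads of HOX genes and of their antisense partners cannot be told apart.

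Other families followed with smaller sums. TFAP2 genes, factors of ectoderm and trophoblast, had 4 counts in Pre and 35 in Post, 8.24-fold (2.95 to 31.9), with TFAP2A at 1 and 12 counts and TFAP2B at 2 and 15. PAX genes had 12 and 50 counts, 3.93-fold (2.06 to 8.10), with PAX8 at 6 and 24. DLX genes had 9 and 31 counts, and TBX genes 33 and 83, with TBX5, a heart and limb factor, at 4 and 17. For GATA, NKX, IRX, SOX, LHX and LMX genes, and for the NEUROG, NEUROD, OLIG and HAND group, the interval of the ratio held 1. All these genes stayed at low levels in Post, where HOXB3, with the most counts gained, had 2.59 RPM. In bulk counts a few cells with many transcripts and many cells with few transcripts each cannot be told apart.

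**Figure D5:**
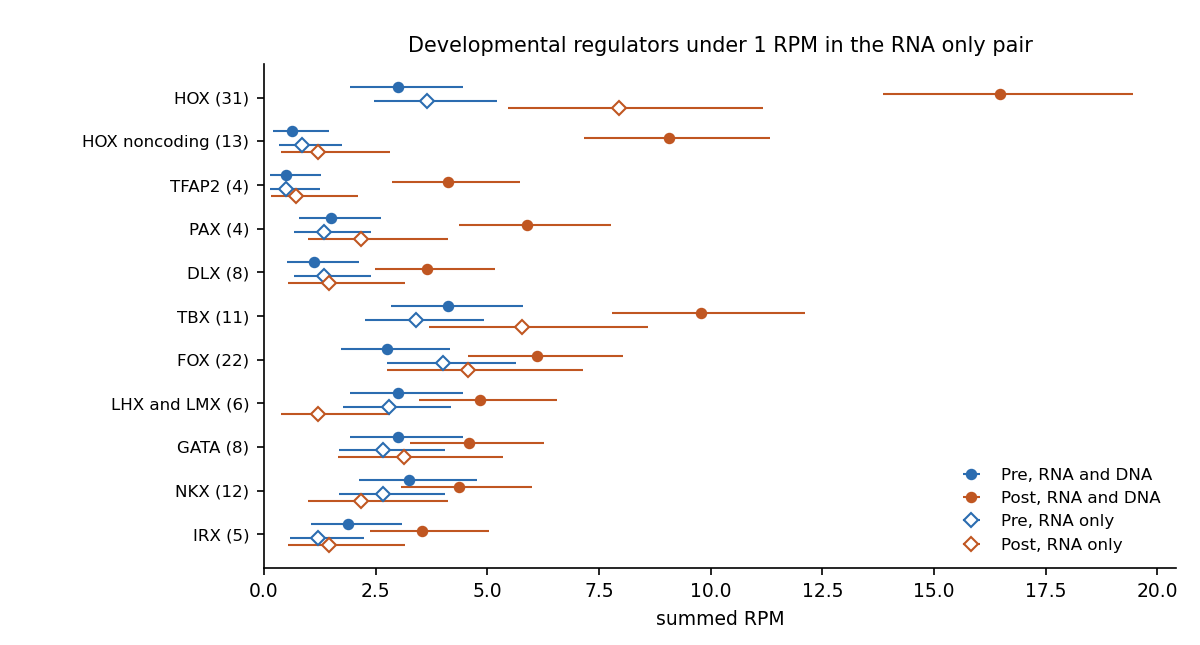
Summed RPM (x axis) of developmental gene families whose members lay under 1 RPM in the RNA only pair (number of genes in brackets), in Pre (blue) and Post (orange), with 95% counting intervals; filled circles are the pair with DNA profiling and open diamonds that for RNA only. HOX genes stand at 2.999 RPM in Pre and 16.5 RPM in Post with DNA profiling, with intervals that do not overlap. Genes above the bound of 1 RPM were left out, which limits the RNA only values.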

How the data were processed

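The deposited values are whole-number counts per gene symbol, 1 column a library, deposited by the authors after alignment to GRCh38 (STAR 2.7.11b), a filter on mapping quality above 50 and removal of duplicates that shared position and molecular identifier. SAMtools, Trim Galore 0.6.10, Bowtie2 2.5.3 and Bowtie 1.3.1 also stand in the submitters' processing notes. The methods describe these steps for single-cell data, the annotation and strand setting are not given in the sources used here, and 60 further barcode columns were not used. Pre and Post were assigned from the sample titles. No normalization had been applied.

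RPM were taken over totals without the 6 FP236383 and FP671120 genes. With 1 library a side there is no test: genes averaging 10 RPM or more were called where the ratio, taken after adding 1 RPM, reached 2-fold or 1.5-fold. Lists used members averaging 1 RPM or more, and list medians are relative to the median of all such genes, 0.03. Intervals are exact Poisson (RPM) and exact conditional binomial (ratios). The members and the 53 lists were chosen with earlier results of these data known. Genes named are those called 2-fold, those above 1500 RPM, the most abundant and extreme members of lists, and regulators of pluripotency and of H3K27. XIST and Y-linked genes were left out, and a few further genes that the rule names are not reported here. Single genes of the developmental families were named after their values were seen, as were LDOC1, SNHG3, PDE3A, ANKRD30BL, SLBP, MKI67 and ROBO2.

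Of 33640 symbols 21841 matched GENCODE release 44 directly and 495 through an older name. Segments like ribosomal RNA were found by BLAST 2.17.0 with the 45S gene of chromosome 21. The alternatives were TMM (edgeR 4.0.16), median-of-ratios (DESeq2 1.42.0), other totals, filters, pseudocounts and thinning. The calling step was tested on simulated data. Python 3.11.15, SciPy 1.17.1 and R 4.3.3 were used.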

Additional observations from a re-analysis of the deposited data

Results flagged for a closer look

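Several values went one way with DNA profiling and the other way in the RNA only pair, and whether the pairs differ was not tested, since each is 1 library a side. For gene lists, the difference of the relative median log2 ratios (with DNA profiling minus RNA only) was −1.48 for the small and −1.40 for the large subunit of the cytosolic ribosome. It was −0.81 for complexes II to V, −0.78 for actins and tubulins, −0.66 for mitochondrially encoded mRNAs and −0.63 for the chaperonin CCT. It was −0.57 for complex I, −0.54 for mitochondrial ribosomal proteins and −0.47 for glycolysis.

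Among genes called 2-fold lower with DNA profiling, the same difference in log2 ratio was −2.77 for ASIP, −1.97 for AC089983.1, −1.83 for FAU, −1.75 for COX7A2 and −1.65 for AP003352.1. The correlation of log2 ratio with gene span differed by 0.75.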

How the results depend on the processing

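All 29 genes called 2-fold kept their direction under the 8 alternatives run for single genes, which were other totals, pseudocounts, thinning and centring. These genes were picked for a 2-fold ratio in the same counts, so a change of direction could hardly occur, and this is no check of the calls. The counts of calls followed the filter and the pseudocount. Genes at least 2-fold higher numbered 150 at a mean of at least 1 RPM, 4 at 50 RPM, 8 with a pseudocount of 5 RPM, 10 with the FP genes in the totals and 10 among protein-coding genes, beside 16. Those lower numbered 51, 4, 1, 21 and 8 in the same order, beside 13. Genes at least 1.5-fold higher numbered 1175, 17, 70, 80 and 90 in that order, beside 145. Those lower numbered 665 at 1 RPM, 88 at 50 RPM and 151 with a pseudocount of 5 RPM, beside 283. The median of all genes, 0.03 at 1 RPM, was −0.050 with FP genes in the totals, −0.017 with TMM, −0.0055 with size factors, −0.0083 at 10 RPM, 0.0018 at 50 RPM, 0.022 with a pseudocount of 5 RPM and 0.0027 for protein-coding genes. The relative median of histones, 0.67, was 0.33 at 50 RPM and 0.51 with a pseudocount of 5 RPM. The correlation with gene span, 0.46, was 0.31 at 1 RPM and 0.56 at 50 RPM. The alternatives for gene span, for the 1.5-fold counts and for the developmental families were added after the data were seen. Of 515 list medians under alternatives, 490 stayed within an interval of the main value that was taken over the genes of the list. Genes of a list share both libraries and are not independent replicates. List medians are relative to the median of all genes, so a change of scaling nearly cancels in them. That of histones was 0.663 with FP genes in the totals and 0.665 with TMM, beside 0.669. The count of 490 is therefore no check of the lists against the choice of scaling. No paired analysis was possible because each condition is 1 library. Depth limited genes near the lower bound, as for HHAT, where 58 counts in Pre and 142 in Post gave a ratio with an interval of 1.69 to 3.19.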
